A study of Homo sapiens with 76 samples.

Results

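The 7 complex I messenger RNAs of the mitochondrial genome (MT-ND1, MT-ND2, MT-ND3, MT-ND4L, MT-ND4, MT-ND5 and MT-ND6) were followed in 76 single HEK293 cells. HEK293 is an established line derived from human embryonic kidney. They were taken by name from a table of 17513 genes, and all 7 were present. The cells were grown in DMEM with glutamine and fetal calf serum, and the labels name no treatment, no second group and no replicate cultures. Each cell was lysed in a chamber of a Fluidigm C1 chip with 20000 molecules of ERCC spike-in RNA. Its polyadenylated RNA was primed with oligo-dT and tagged at the 5′ end with a unique molecular identifier (UMI), so that a UMI stands for 1 captured 5′ end. The 76 cells are treated as 1 sample: every SD below is a spread over cells and no p-value is given. Cells held 7305 to 43392 endogenous UMIs (median 20966) and 1390 to 3132 spike-in UMIs (median 2198.5). Of 6 kidney epithelial markers 3 were analysed here (CDH1, PAX2 and PAX8 were absent): KRT18 was seen in 45 cells, KRT8 in 19 and EPCAM in 1. Of 5 neuronal markers, which this line is known to express in part, 4 were analysed here (STMN2 was absent). UCHL1 was seen in 70 cells, NEFM in 49, NEFL in 26 and MAP2 in 0. Markers of other tissues gave 16 UMIs (blood, 2 of 6 markers analysed), 17 (fibroblast and muscle, 3 of 5) and 1 (liver, 2 of 4) over all cells.

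Complex I is the NADH dehydrogenase of the respiratory chain, which passes electrons from NADH to ubiquinone and pumps protons across the inner mitochondrial membrane. The MT-ND genes encode the hydrophobic core subunits of its membrane arm, and the remaining subunits are encoded in the nucleus and imported. The mitochondrial genome is transcribed from both strands into long polycistronic RNAs, from which the transfer RNAs that lie between most genes are cut out, and the messenger RNAs so released carry almost no untranslated leader. All members except MT-ND6 lie on the heavy-strand transcript, and MT-ND6 is the only messenger RNA gene of the light-strand transcript. MT-ND4L and MT-ND4 stay joined in 1 bicistronic messenger RNA, as do MT-ATP8 and MT-ATP6.

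The joint of the bicistronic pair and the contrast between the strands can be read from the reference sequences (GENCODE 29 transcripts, matched by symbol for all 7 members, 5′ to 3′). The last 40 bases of MT-ND4L and the first 40 of MT-ND4 share the 7 bases in capitals, so that the MT-ND4 start codon lies inside the end of MT-ND4L.
MT-ND4L end: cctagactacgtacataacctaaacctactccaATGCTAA
MT-ND4 start: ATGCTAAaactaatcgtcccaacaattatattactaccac
The first 60 bases of MT-ND5 and of MT-ND6, which converge on the map from opposite strands, are shown with guanines in capitals.
MT-ND5 start: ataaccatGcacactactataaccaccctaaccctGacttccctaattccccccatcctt
MT-ND6 start: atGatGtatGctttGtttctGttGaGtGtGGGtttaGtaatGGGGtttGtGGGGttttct
Guanine made up 35.6% of the MT-ND6 sequence and 9.50% (MT-ND2) to 12.1% (MT-ND4L) of the heavy-strand members, while cytosine made up 7.05% of MT-ND6 and 29.5% (MT-ND3) to 35.98% (MT-ND1) of the others. MT-ND1, MT-ND3 and MT-ND5 open with ATA and MT-ND2 with ATT, codons that mitochondria read as starts, and MT-ND4L, MT-ND4 and MT-ND6 open with ATG. MT-ND1 ends in an incomplete stop codon of 2 bases and MT-ND2, MT-ND3 and MT-ND4 in 1 of a single base, which the poly(A) tail completes.

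Together the members gave 309 ± 167 UMIs per cell (SD, n = 76 cells, lowest 54, median 277.5, highest 748), or 1.39% ± 0.612 of a cell's endogenous UMIs (0.434% to 3.28%). They made up 38.8% ± 3.17 of the UMIs of the 13 mitochondrial messenger RNAs. MT-ND4, a membrane-arm subunit of the proton-pumping part, had the most UMIs, with a lowest, median and highest count of 8, 83 and 199 and a mean of 84.8 ± 48.3. MT-ND4L followed with 5, 51.5 and 151 UMIs and a mean of 54.4 ± 33.003. MT-ND4 exceeded MT-ND4L in 71 of 76 cells, although their ranges over cells overlapped widely. The intact joined RNA of this pair has its 5′ end at MT-ND4L, so these counts are not levels of 2 separate messenger RNAs. Where along the RNA the UMIs of MT-ND4 were tagged was not tested. MT-ND5, the largest member by length, had 5, 43 and 119 UMIs (45.7 ± 24.4), MT-ND1, which borders the quinone-binding site, 6, 40.5 and 129 (45.1 ± 29.02), and MT-ND2 had 7, 41 and 112 (44.9 ± 24.1).

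These 3 could not be ordered. MT-ND5 was above MT-ND1 in 42 cells and below in 31, and MT-ND1 above MT-ND2 in 36 and below in 35, with mean differences of -0.618 ± 15.4 UMIs (MT-ND1 minus MT-ND5) and 0.184 ± 14.5 UMIs (MT-ND1 minus MT-ND2), far inside the spread. The mean step from MT-ND4L down to MT-ND5 was also inside the spread over cells (8.64 ± 17.1 UMIs). Within cells, however, MT-ND4L was the higher in 54 and the lower in 19. MT-ND3 was lower, with 5, 26 and 64 UMIs (27.3 ± 14.8), and below MT-ND2 in 71 of 76 cells. MT-ND6 was the lowest by far, with 0, 5 and 19 UMIs (6.29 ± 4.49), and below MT-ND3 in 75 of 76 cells. All heavy-strand members were seen in every cell, and MT-ND6 in 72 of 76 (94.7%, exact Clopper-Pearson 95% interval 87.1% to 98.5%). That interval takes the cells as independent with 1 detection rate, although they are 1 sample and differ in total UMIs. The 4 cells without a MT-ND6 UMI held 10940 to 24515 endogenous UMIs and 108 to 271 UMIs of the heavy-strand members, and a count of 0 there allows a share of up to 0.0122% to 0.0274% (3 counts; counting error only).

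**Figure D1:**
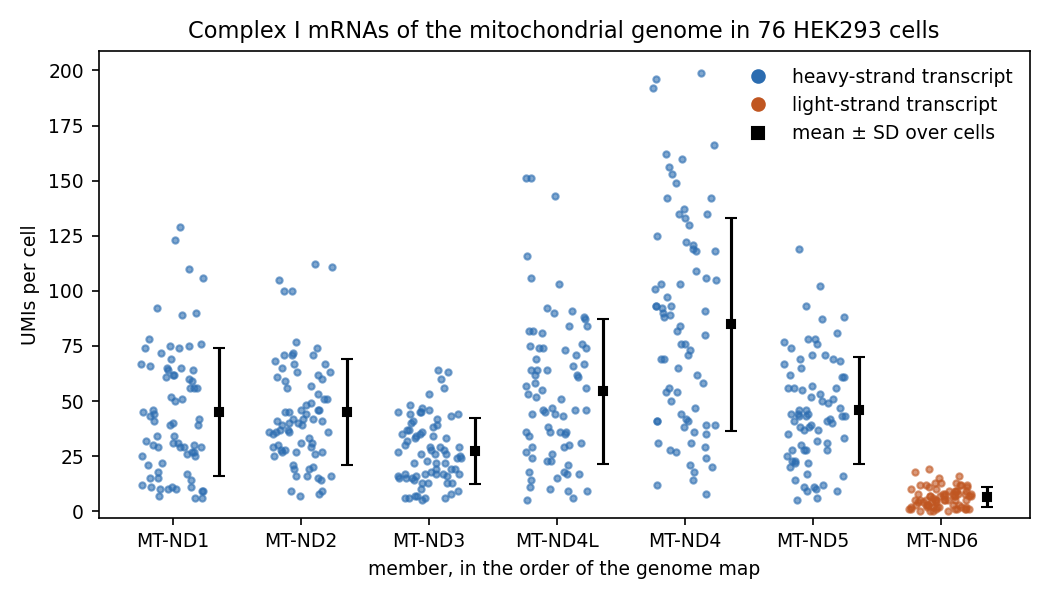
UMIs per cell (vertical axis) of the 7 complex I mRNAs in the order of the genome map (horizontal axis), with 1 point per cell and the mean ± SD over 76 cells beside it. MT-ND4 reaches 199 UMIs, while no cell has more than 19 of MT-ND6, the only member of the light-strand transcript.

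The order depends on the scale. In this protocol a molecule is tagged once at its 5′ end, so UMIs are compared as counts, and the same levels per kilobase of gene length are given beside them. Per kilobase, MT-ND4L (297 bases) was the highest at 183 ± 111 UMIs, followed by MT-ND3 (346 bases) at 79.02 ± 42.8, MT-ND4 at 61.6 ± 35.03, MT-ND1 at 47.2 ± 30.4, MT-ND2 at 43.1 ± 23.2, MT-ND5 (1812 bases) at 25.2 ± 13.5 and MT-ND6 at 11.98 ± 8.56. The 2 shortest members thus moved to the top and the longest moved down, while MT-ND6 was lowest on both scales.

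MT-ND6, the 1 member of the light strand, was the lowest member in nearly every cell. With only 1 such member, strand and other traits of MT-ND6 cannot be told apart. MT-ND6 made up 2.06% ± 1.16 of the members' UMIs in a cell (0% to 5.45%). It was below MT-ND1, MT-ND2, MT-ND4L, MT-ND4 and MT-ND5 in 76 of 76 cells each. Over all cells MT-ND5, its neighbour on the opposite strand, gave 7.27 times as many UMIs, and MT-ND4 13.5 times as many. Per kilobase MT-ND6 was above MT-ND1 in 1 cell and above MT-ND5 in 1 cell, and below every other member in all cells. The light strand also carries 8 transfer RNA genes, of which MT-TP gave 44.03 ± 45.4 UMIs per cell, about the count of MT-ND5. The next of them, MT-TE, gave 2.95 ± 3.33, so MT-TP alone was high among the light-strand genes. With the transfer RNAs included, light-strand genes made up 3.61% ± 2.44 of mitochondrial UMIs. Whether the counting used the strand of the reads is not given in the sources used here. As cDNA was primed with oligo-dT, counts cover only molecules so primed, and the messenger RNA of MT-ND6 is known in human cells to have little or no poly(A) tail; how far its counts stand for its RNA level was not tested. If the counting ignored strand, reads of MT-ND6 and reads of heavy-strand RNA across the same place cannot be told apart. The same holds for MT-TP and the other light-strand transfer RNA genes.

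Place in the heavy-strand transcript gave no steady rise or fall. Among the 12 heavy-strand messenger RNAs in map order, MT-ND1 and MT-ND2 are the first and second from the promoter side, MT-ND3, MT-ND4L, MT-ND4 and MT-ND5 run from place 8 to place 11, and MT-CYB is last. MT-ND1 and MT-ND2 together made up 29.8% ± 4.66 of the UMIs of the 6 heavy-strand members (20.0% to 43.5%), whereas the joined pair MT-ND4L and MT-ND4, far downstream, made up 45.2% ± 5.87. Along the map, the count was level from MT-ND1 to MT-ND2, fell to MT-ND3 in 71 cells, rose to MT-ND4L in 69 cells, rose again to MT-ND4 in 71 cells and fell to MT-ND5 in 70 cells. MT-CYB, at the far end, gave 98.4 ± 54.8 UMIs, a higher mean count than that of any member. Per kilobase 2 of these steps turned, with MT-ND3 above MT-ND2 in 71 cells and MT-ND4L above MT-ND4 in 76. The rise from MT-ND3 to MT-ND4L (73 cells) and the fall from MT-ND4 to MT-ND5 (76 cells) kept their direction. On that scale the part of MT-ND1 and MT-ND2 was 20.7%.

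The UMIs of the bicistronic pairs were split in opposite ways. An intact joined RNA tagged at its 5′ end would be counted on its upstream frame. The parts below are therefore not relative levels of the 2 frames, and how UMIs fell on the downstream frames was not tested. MT-ND4L, the upstream reading frame, held 38.9% ± 7.18 of the UMIs of its pair (18.2% to 55.4%) and was above MT-ND4 in only 5 of 76 cells. MT-ATP8, the upstream frame of the other pair, held 71.6% ± 4.75 (61.2% to 81.1%) and was above MT-ATP6 in 76 of 76. The ranges of the 2 pairs over cells did not overlap. Per kilobase the upstream frame was the higher in 76 of 76 cells for both pairs. The MT-ND4L part of its pair varied among cells more than binomial counting gives (dispersion 2.12, where counting alone gives 1), and for MT-ATP8 that value was 1.70. The MT-ND4L part was only weakly related to the MT-ATP8 part (Spearman rho = 0.204, Pearson r = 0.182, over 76 cells). Its relations to the summed MT-ND share (rho = -0.117, r = -0.0995) and to endogenous UMIs (rho = 0.245, r = 0.185) were also weak. These weak values are no finding.

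**Figure D2:**
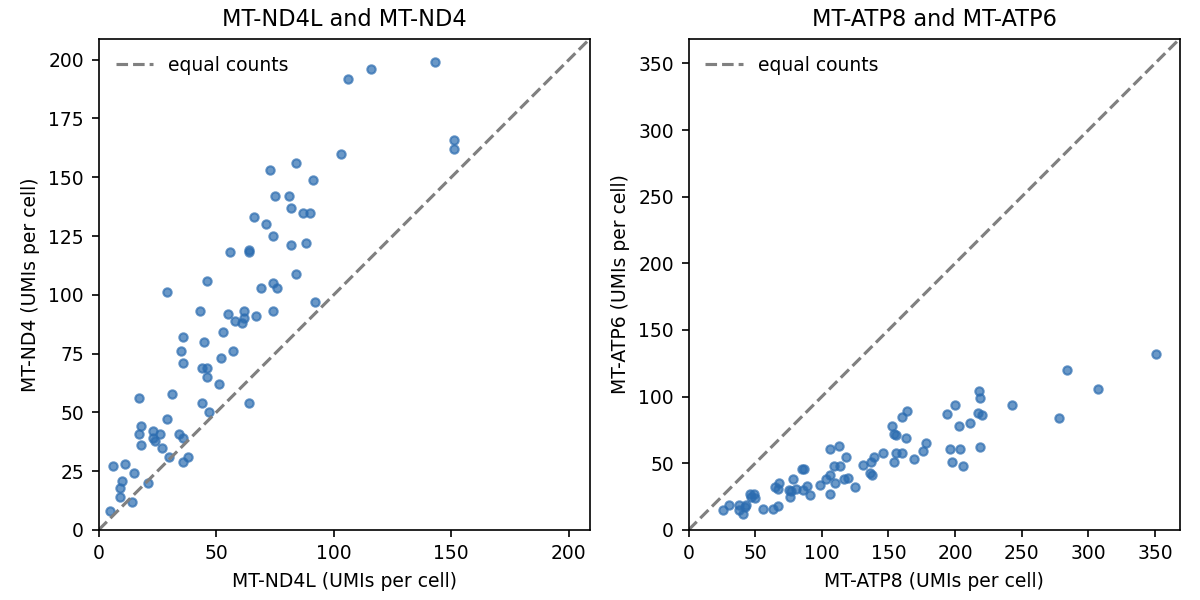
UMIs per cell of the upstream frame (horizontal axis) and the downstream frame (vertical axis) for MT-ND4L with MT-ND4 (left) and MT-ATP8 with MT-ATP6 (right), 1 point per cell, with a dashed line of equal counts. Of 76 cells, 71 lie above the line on the left and 0 on the right.

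The heavy-strand members rose and fell together from cell to cell. Their 15 pairwise correlations of shares had a median rho of 0.714 (0.580 to 0.885, 76 cells). All these points share the cells' libraries and totals. MT-ND1 and MT-ND4, far apart on the map, were the closest pair (rho = 0.885), and MT-ND3 and MT-ND4L, which are neighbours, the most distant (0.580). The 4 pairs with no other messenger RNA gene between them on the map had a median rho of 0.741 (0.580 to 0.813) and the other 11 pairs 0.697 (0.599 to 0.885), so the 2 sets overlapped. MT-ND6 was less tightly tied to the heavy-strand members (median rho 0.555, from 0.363 with MT-ND3 to 0.601 with MT-ND5). Its mean of 6.29 UMIs leaves it more counting error than the others, and the part of depth in that gap was not tested. With cells thinned to 10940 UMIs the medians were 0.680 and 0.464.

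Other mitochondrial messenger RNAs were the closest companions of each member. By the highest rho among 2810 genes with a mean of at least 1 UMI, MT-ND1 was nearest to MT-ND4 (0.885) and MT-CO3 (0.881), MT-ND2 to MT-ATP6 (0.776) and MT-ATP8 (0.774), MT-ND3 to MT-ATP6 (0.753) and MT-ND2 (0.697), and MT-ND4L to MT-CYB (0.858) and MT-ATP8 (0.847). MT-ND4 was nearest to MT-CO3 (0.904) and MT-CYB (0.887), MT-ND5 to MT-ATP8 (0.818) and MT-CYB (0.798), and MT-ND6, from the other strand, likewise to MT-ATP8 (0.620) and MT-CYB (0.606). MT-CO3 and MT-CO2 encode subunits of cytochrome oxidase, MT-CYB encodes cytochrome b of complex III, and MT-ATP8 and MT-ATP6 encode subunits of ATP synthase.

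**Figure D3:**
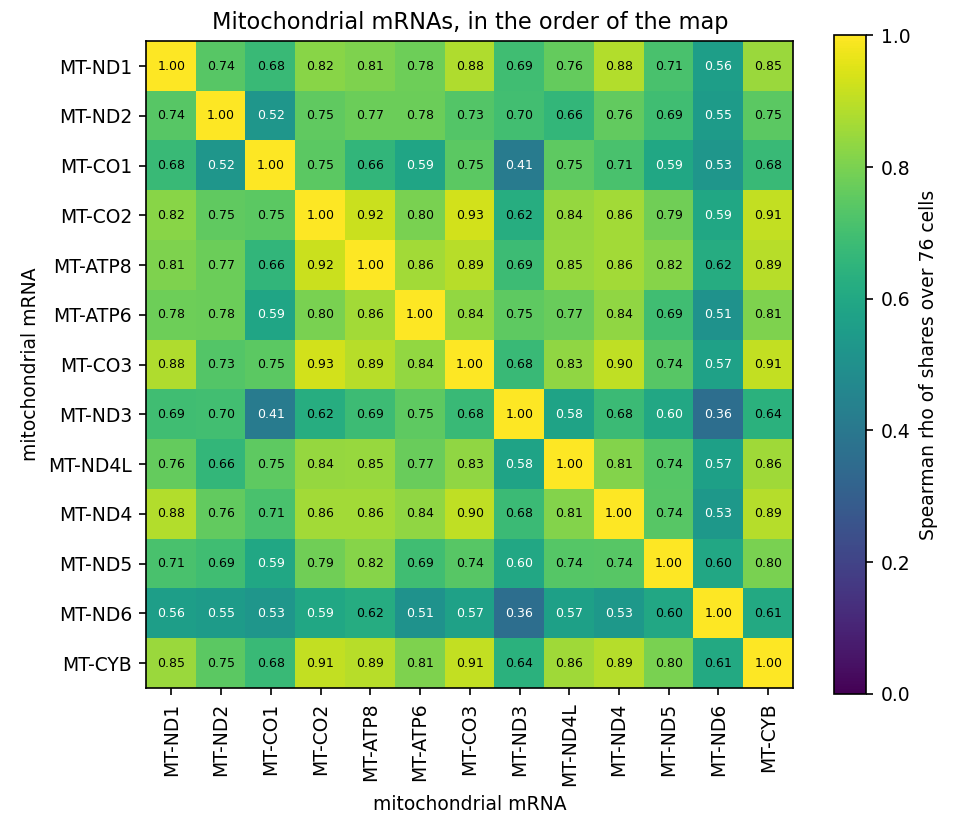
Spearman rho of shares over 76 cells between the 13 mitochondrial mRNAs, in map order on both axes, with colour and number giving rho. MT-ND6 has values of 0.363 to 0.601 with the heavy-strand members, a range that overlaps that of the heavy-strand pairs (0.580 to 0.885) at its upper end.

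Cells differed in their MT-ND level more than in most nuclear messages of like abundance. The share of a heavy-strand member had a coefficient of variation (SD over mean) of 44.1% (MT-ND3) to 56.7% (MT-ND1), where the 82 genes outside the mitochondrial genome with means in the same range (27.3 to 84.8 UMIs) had a median of 26.6%, and 3 of the 82 reached 44.1%. The Pearson dispersion, the squared deviation from the count expected from a cell's total over that expectation, ran from 2.74 (MT-ND6) and 4.99 (MT-ND3) to 17.5 (MT-ND4). It exceeded the highest spike-in value (2.20, 36 spike-ins) for 7 of 7 members, against 21.6% of the 2810 genes tested. Dispersion grows with abundance: of the 82 genes in the range of the heavy-strand members 82.9% exceeded it, so that count is near the background, although 8 of the 82 reached the lowest heavy-strand dispersion. MT-ND6 ranked 239 of 2810. Of 438 genes within 1.5 times its mean 32.6% exceeded the highest spike-in, and 44 had a dispersion at least as high as MT-ND6. Without the 5 cells of highest mitochondrial messenger share MT-ND6 was at 1.98 and no longer exceeded it.

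Most of this spread was shared with the other mitochondrial messages. Measured against a cell's UMIs of the 13 mitochondrial messenger RNAs in place of its total, dispersions were 1.38 for MT-ND6, 1.86 for MT-ND4L, 1.94 for MT-ND4, 2.15 for MT-ND5, 2.51 for MT-ND2 and MT-ND3 and 2.62 for MT-ND1. Each member's own UMIs are part of that sum, so part of the drop is built in. The values of MT-ND1, MT-ND2 and MT-ND3 remained above the highest spike-in. The cell of lowest MT-ND share had 58 MT-ND UMIs of 13360 (0.434%), namely 6 of MT-ND1, 16 of MT-ND2, 13 of MT-ND3, 5 of MT-ND4L, 8 of MT-ND4, 9 of MT-ND5 and 1 of MT-ND6. The cell of highest share had 569 of 17359 (3.28%), namely 110, 100, 40, 75, 142, 93 and 9 in the same order. These 2 cells had 1971 and 2076 spike-in UMIs. In the second lowest cell MT-ND4L led with 21 UMIs, beside 20 each of MT-ND4 and MT-ND5, and in the second highest MT-ND4 led with 122, followed by MT-ND4L with 88. MT-ND4 led in both of the highest cells. In the 2 lowest the leads were 16 against 13 UMIs and 21 against 20, too small to say which member led.

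The summed MT-ND share followed the other 6 mitochondrial messenger RNAs closely (rho = 0.958, r = 0.960, and r = 0.952 without the 2 cells farthest from the median of the other share, 76 cells). It followed the mitochondrial ribosomal RNAs, which lie nearest the heavy-strand promoter, less closely (rho = 0.461, r = 0.430, and r = 0.473 without 2 cells). By member, rho with the ribosomal RNA share ran from 0.193 (MT-ND3) to 0.526 (MT-ND6), the member on the other strand. The share bore little relation to a cell's endogenous UMIs (rho = 0.0517, r = -0.0220) or spike-in UMIs (rho = 0.0834, r = 0.0614). Scaled by spike-in UMIs, which leaves a cell's RNA content in both measures, rho with endogenous UMIs was 0.576. Fewer mitochondria and less RNA per mitochondrion cannot be told apart in these counts.

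**Figure D4:**
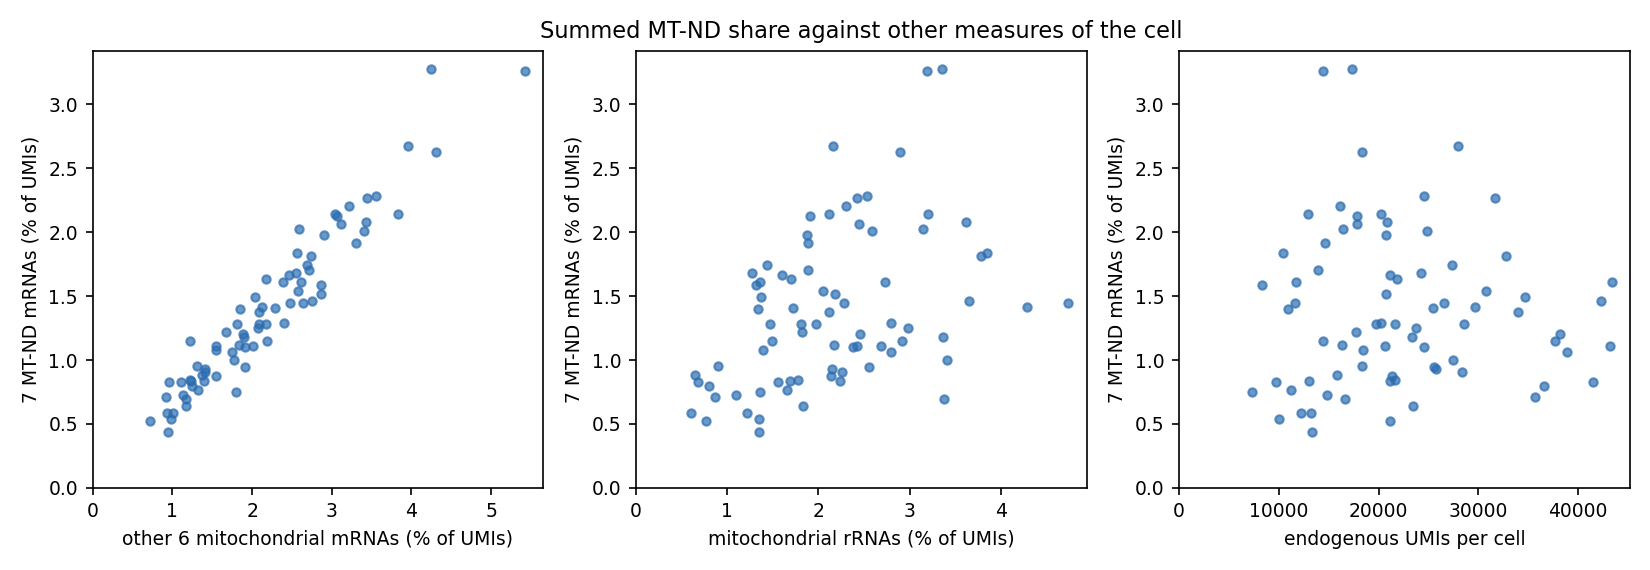
Summed share of the 7 MT-ND mRNAs in percent of a cell's endogenous UMIs (vertical axes) against the share of the other 6 mitochondrial mRNAs (left), the share of the mitochondrial ribosomal RNAs (middle) and the endogenous UMIs (right), 1 point per cell. The points lie along a line on the left (rho 0.958), scatter in the middle (0.461) and show no trend on the right (0.0517).

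Nuclear genes of complex I followed the mitochondrial ones no more than other genes did. Of 37 nuclear subunit genes 35 were analysed here, and together they gave 1.24% ± 0.177 of a cell's UMIs, close to the 1.39% of the 7 MT-ND members, with a coefficient of variation of 14.3% against 43.99%. Their summed share had a rho of -0.0041 with the MT-ND share (r = -0.0638, 76 cells). Of the 31 with a mean of at least 1 UMI, 1 reached a rho of 0.3, against 3.55% of the 2787 genes tested outside the mitochondrial genome, and 2 were at -0.3 or lower, against 6.49%. The median rho was -0.0132 for these 31 genes and -0.0303 over all 2787, so the list lay at the background.

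The subunits were described by role. The core subunits of the peripheral arm, which carry the flavin and the iron-sulfur clusters, were sparse: NDUFS8 gave 8.47 ± 5.57 UMIs (rho = 0.0782), NDUFS3 3.84 ± 3.48 (0.132), and NDUFV1 and NDUFS7 2.43 each (-0.124 and -0.170). Accessory subunits ranged from NDUFA13 at 0.316 UMIs to NDUFA1 at 34.8 ± 15.4 (rho = 0.115), and so overlapped the core subunits. After NDUFA1 the most abundant were NDUFB1 at 21.7 ± 8.66 (0.0021), NDUFC1 at 16.6 ± 9.03 (0.389) and NDUFB4 at 15.9 ± 7.67 (-0.135). NDUFC1 was the 1 gene past 0.3, and NDUFB10 (-0.552) and NDUFS6 (-0.333) were the 2 at or under -0.3, named after their values were seen. Of 13 assembly factor genes 5 had a mean of at least 1 UMI and 0 of these reached 0.3, against 3.55% of all 2787 genes. The most abundant were NDUFAF3 (12.9 ± 6.45 UMIs, rho = -0.232), NDUFAF4 (7.08 ± 5.24, 0.275), NDUFAF2 (3.68 ± 2.64, -0.0674) and TIMMDC1 (1.96 ± 1.96, -0.00924).

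Genes that transcribe, process and stabilise mitochondrial RNA had a median rho of -0.0340, close to the -0.0303 over all 2787 genes. Of 25 in the list 24 were analysed here, 10 had a mean of at least 1 UMI and 1 of these reached 0.3, against 3.55% of all genes. That gene was FASTKD2, which encodes a mitochondrial RNA-binding protein (1.13 ± 1.28 UMIs, rho = 0.301); without the 5 cells of highest mitochondrial messenger share it was at 0.242. SLIRP, whose protein stabilises mitochondrial messenger RNAs together with LRPPRC, gave 16.8 ± 7.87 UMIs (rho = -0.0271) and TRMT10C, part of the enzyme that cuts the 5′ ends of transfer RNAs, 6.78 ± 4.80 (0.219). HSD17B10, another part of that enzyme, gave 3.54 ± 2.95 UMIs (-0.108), and the transcription factor gene TFAM 3.32 ± 2.94 (-0.115).

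**Figure D5:**
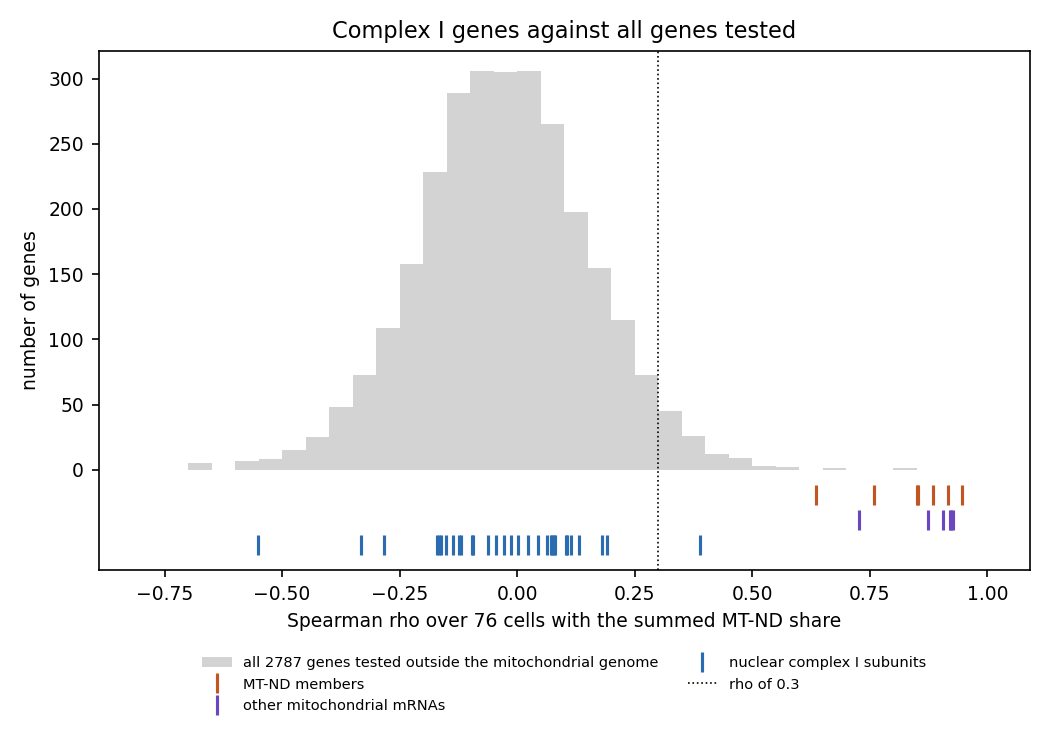
Histogram of Spearman rho with the summed MT-ND share over 76 cells for 2787 genes outside the mitochondrial genome (horizontal axis rho, vertical axis number of genes), with ticks for the MT-ND members, whose own counts are part of the sum, the other mitochondrial mRNAs and 31 nuclear complex I subunits. The nuclear subunits spread over the histogram, and 1 of them lies past the dotted line at 0.3.

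Outside the mitochondrial genome, the genes most like the summed MT-ND share were CTB-36O1.7 (rho = 0.842, mean 22.9 UMIs), MTATP6P1 (0.664, 12.3 UMIs), RP11-352E6.2 (0.589, 1.197 UMIs), SNRPB2 (0.577, 7.28 UMIs) and SF3B14 (0.515, 18.0 UMIs). MTATP6P1 is named as a nuclear pseudogene of MT-ATP6, and CTB-36O1.7 and RP11-352E6.2 carry only names of sequencing clones. SNRPB2 and SF3B14, the latter listed by RefSeq as SF3B6, encode proteins of the spliceosome. The lowest were RPL13 (-0.698), HNRNPA1 (-0.686) and RPS3 (-0.672), genes of the ribosome and of messenger RNA binding. Scaled by UMIs outside the mitochondrial genome they were -0.654, -0.660 and -0.622. Scaled by spike-in UMIs, under which the median rho over all genes outside the mitochondrial genome went from -0.0303 to 0.228, they were 0.0268, -0.0710 and 0.140, still below that median.

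Rows named as nuclear pseudogene copies stood beside some members. The table held 19 rows named as copies of members, with 453 UMIs against 23457 for the members (1.93%). MT-ND2 had 296 such UMIs (8.67% of its own 3415), 274 of them in MTND2P28, and MT-ND4 had 124 (1.92%), 117 of them in MTND4P12. MT-ND1 had 8, MT-ND5 23 and MT-ND6 2, and no row was named as a copy of MT-ND3 or MT-ND4L. How reads that map to both were counted is not given in the sources used here, so the levels of MT-ND2 and MT-ND4 are the less certain. Rows with only clone names, such as CTB-36O1.7 (mean 22.9 UMIs), were not searched for copies of members.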

How the data were processed

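The authors deposited 1 table of whole-number UMI counts per gene and cell, not normalized, for 76 cells. Reads were processed with cutadapt 1.2.1 and STAR 2.4.0a on hg19 (GRCh37) as far as the submitters' processing notes say, which state neither roles nor order. The UMI counter, annotation, strand setting and cell filter were not given in the sources used here. A row named GENE that repeats the cell numbers (0.197% of all values) was left out, and 80 spike-in rows were kept apart. Columns were matched to cells by run name and number.

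Each share is a gene's part of the endogenous UMIs of its cell, in percent. Gene order, strand and length came from GENCODE 29 (GRCh38), a build other than that of the files, so no coordinates are given. Dispersions and Spearman correlations used genes with a mean of at least 1 UMI (Python 3.11.15, numpy 2.4.6, scipy 1.17.1) and were tested on simulated data. Named genes were the members, the 5 highest and 3 lowest genes by rho with the MT-ND share outside the mitochondrial genome, the 2 nearest to each member, and the 4 most abundant of each list with those at a rho of 0.3 or more. The members and lists were chosen with earlier results of these data known. No doublet caller was run. Alternatives left out the 5 cells under 10483 UMIs or the 5 of highest mitochondrial messenger share, thinned 71 cells to 10940 UMIs, corrected for tag collisions (20736 tags, from the N(4)H(4) of the protocol, although column names carry N6H4, which would allow 331776), pooled cells, or changed scale, length correction, correlation or minimum mean.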

Additional observations from a re-analysis of the deposited data

How the results depend on the processing

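Of 56 recomputed values for 8 results, 51 stayed within 1 SD over cells or pairs, within 0.1 of a rho or within 1.5 times a count. An SD over cells is a wide limit for a mean: the MT-ND6 part stayed within it at 2.70% per kilobase against 2.06%. Per kilobase, the MT-ND4L part of its pair was 74.04% and the part of MT-ND1 and MT-ND2 was 20.7%, since lengths differ. Scaled by spike-in UMIs, the median rho among heavy-strand members was 0.824, the rho of the MT-ND level with endogenous UMIs 0.576, and 12 of 31 nuclear complex I subunits reached a rho of 0.3, against 32.8% of all genes; a cell's RNA content then enters both measures. Under that scale the rho of RPL13 was 0.0268 and of RPS3 0.140, both turned in sign, while the median rho over all genes rose from -0.0303 to 0.228 and both stayed below it. Adding the nuclear copies to their members, chosen after seeing the data, moved no share by more than 1 SD. With 1.93% as many UMIs as the members, these copies, found by name alone, could hardly do so. The MT-ND share went from 1.39% to 1.42%. Thinning gave no value for FASTKD2 and RP11-352E6.2, which fell under a mean of 1 UMI. No paired analysis was possible because the labels give 1 group. Depth limits MT-ND6 most, at a mean of 6.29 UMIs.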

Other observations

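Light-strand transfer RNA genes differed widely in UMI count. MT-TP gave 3346 UMIs over all cells and was seen in 75 of 76, with a lowest, median and highest count of 0, 33.5 and 185. MT-TE gave 224 UMIs, MT-TC 192, MT-TY 158 and MT-TS1 16, and MT-TQ, MT-TA and MT-TN gave 2 each. The share of MT-TP followed that of the heavy-strand MT-ND members (rho = 0.711, r = 0.684, 76 cells), and the share of MT-ND6 followed it with a rho of 0.610 (r = 0.646). The shares of MT-ND6 and of the 8 light-strand transfer RNA genes summed, which come from the same strand, had a rho of 0.430 (r = 0.330). These are descriptions over cells of 1 run, and whether the counting used the strand of the reads is not given.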
